A study of Homo sapiens with 6 samples.

Results

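The 7 RNAs described here, MALAT1, NEAT1, KCNQ1OT1, TUG1, DLEU2, SNHG14 and PVT1, are long noncoding RNAs known to stay in the nucleus in whole or in large part. They were chosen by name, and all 7 were among the 39282 genes of the deposited tables, of which 6313 were long noncoding genes of RefSeq. All 7 passed a filter on low counts that left 16855 genes, 1583 of them long noncoding. Poly(A) RNA was sequenced from cells of 2 human lines: PA-1, derived from a teratocarcinoma of the ovary, and TOV21G, from a clear cell carcinoma of the ovary. Each line was infected with lentivirus carrying a scrambled short hairpin (sh-Ctrl, here the control), with sh-MEX3A#1 (hairpin 1) or with sh-MEX3A#2 (hairpin 2), and each of these 6 states gave 1 library. The design compared each hairpin with the control of its own line, and it calls the depleted cells clones. No label states separate cultures for the libraries of a line. The p-values below therefore measure only the spread between these libraries, which may be technical.

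Most messenger RNAs are exported soon after splicing, but some long RNAs remain beside chromatin or in nuclear bodies. MALAT1 accumulates in nuclear speckles, the bodies rich in splicing factors, and NEAT1 is the scaffold around which paraspeckles assemble. KCNQ1OT1 and SNHG14 are transcribed from 1 parental chromosome only and are known for silencing imprinted neighbours in cis. MEX3A, the protein whose RNA the hairpins target, binds RNA through KH domains and carries a RING domain.

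MEX3A itself stood at 41.2 and 54.9 CPM (expected counts scaled to the TMM-adjusted total of a library) with hairpins 1 and 2 in PA-1 against 137 CPM in the control, and at 40.1 and 33.1 CPM against 78.3 CPM in TOV21G. In TOV21G it was not at least 2-fold lower with both hairpins. By the tests described below, DESeq2 called MEX3A lower in PA-1 only and edgeR called it in neither line. The values are of RNA, and the protein was not measured here. The libraries held 14654628 to 19495162 expected counts, so that a count of 0 allows up to 3 counts, or 0.153 to 0.202 CPM. Such floors cover counting error only. All 7 PA-1 markers reached 1 CPM in every PA-1 library and all 7 TOV21G markers in every TOV21G library. The summed TOV21G markers stood at 6650 CPM in the TOV21G control against 2730 and 4850 CPM with hairpins 1 and 2, and at 435 CPM in the PA-1 control against 1205 and 1307 CPM. The lower sum in TOV21G was not shared by most of these markers. There 4 of 7 lay above the control with both hairpins and 2 below, against 31.3% and 31.9% of all genes tested. Their median log2 fold change was 0.68. The summed PA-1 markers stood at 48.8 CPM in the TOV21G control against 95.7 and 158 CPM, and at 6825 CPM in the PA-1 control against 6183 and 6573 CPM. In TOV21G 2 of the 7 PA-1 markers lay above the control with both hairpins and 1 below, with a median log2 fold change of 0. The source label names ovarian surface epithelial cells, but only 1 to 2 of 5 markers of that epithelium reached 1 CPM in any library, and their sum in TOV21G was 18.8 CPM in the control against 31.1 and 55.0 CPM. The 5 blood markers stayed under 1 CPM everywhere, with 2 to 4 of them at 0. The summed fibroblast markers were at 203 and 147 CPM with hairpins 1 and 2 against 110 CPM in the PA-1 control, and at 113 and 204 CPM against 16.8 CPM in the TOV21G control. The part of these marker differences in the results below was not tested.

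MALAT1 and NEAT1 lie beside each other on chromosome 11, both on the plus strand and each a 1-exon gene in its longest GENCODE transcript (GENCODE v29, GRCh38). NEAT1 occupies bases 65422774 to 65445540 and MALAT1 bases 65497688 to 65506516, with 52147 bases between them. The mature MALAT1 RNA and the long isoform of NEAT1 are known to end not in a poly(A) tail but in a triple helix, in which U-rich stretches hold an A-rich end, left when RNase P cuts off a tRNA-like RNA. Both ends are shown because the libraries were captured with oligo-dT. They were compared over the last 500 bases of 1 GENCODE transcript of MALAT1 and the last 120 of NEAT1. Capitals mark the stretches of at least 8 bases that both hold, leaving out a match nested in a longer one. They are written as DNA of the plus strand 5′ to 3′, chr11:65505997-65506116 for MALAT1 and chr11:65445421-65445540 for NEAT1 (GRCh38):
MALAT1: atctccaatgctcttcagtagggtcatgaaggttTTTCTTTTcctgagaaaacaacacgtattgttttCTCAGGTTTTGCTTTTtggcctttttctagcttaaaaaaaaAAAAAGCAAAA
NEAT1: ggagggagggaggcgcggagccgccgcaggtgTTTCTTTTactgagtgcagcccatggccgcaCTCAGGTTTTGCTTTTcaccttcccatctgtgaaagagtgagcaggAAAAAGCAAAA
The 3 shared stretches stand in the same order, U-rich, U-rich and A-rich as RNA. The MALAT1 sequence ends 353 bases before the annotated end of the MALAT1 transcript compared, and the NEAT1 sequence ends at the annotated end of NEAT1. The A run of the last stretch is 13 bases long in MALAT1 and 5 in NEAT1. Of the 200764 GENCODE transcripts of at least 120 bases, searched on the transcript strand only, 2971 (1.48%) held TTTCTTTT in their last 120 bases, 1 (0.000498%) held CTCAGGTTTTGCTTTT and 111 (0.0553%) held AAAAAGCAAAA. Only 1 of these ends, that of NEAT1, held all 3, since the shown part of MALAT1 is not at an annotated end. The stretches were taken from that NEAT1 end, so its own hit was fixed beforehand. These letters are a description and not evidence of a helix.

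MALAT1 was the most abundant of the 7 RNAs in every library and higher with both hairpins in both lines, most in TOV21G. In TOV21G it stood at 4315 CPM in the control, 9429 CPM with hairpin 1 and 18455 CPM with hairpin 2. Both hairpin libraries lay above the control there, by 2.19-fold and 4.28-fold, and hairpin 2 lay well above hairpin 1. Only 1 gene in the hairpin 2 library and 2 genes in the hairpin 1 library had more counts than MALAT1, which ranked 7 in the control. Its share of all counts was 0.423% in the TOV21G control (95% exact binomial interval 0.420 to 0.427), 0.976% with hairpin 1 (0.971 to 0.981) and 1.72% with hairpin 2 (1.71 to 1.72). These intervals cover counting error within 1 library only, not the spread between libraries. In PA-1 MALAT1 stood at 909.5 CPM in the control, 1303 CPM with hairpin 1 and 1113 CPM with hairpin 2. Both hairpins again lay above the control, by 1.43-fold and 1.22-fold, here with hairpin 1 the higher.

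**Figure D1:**
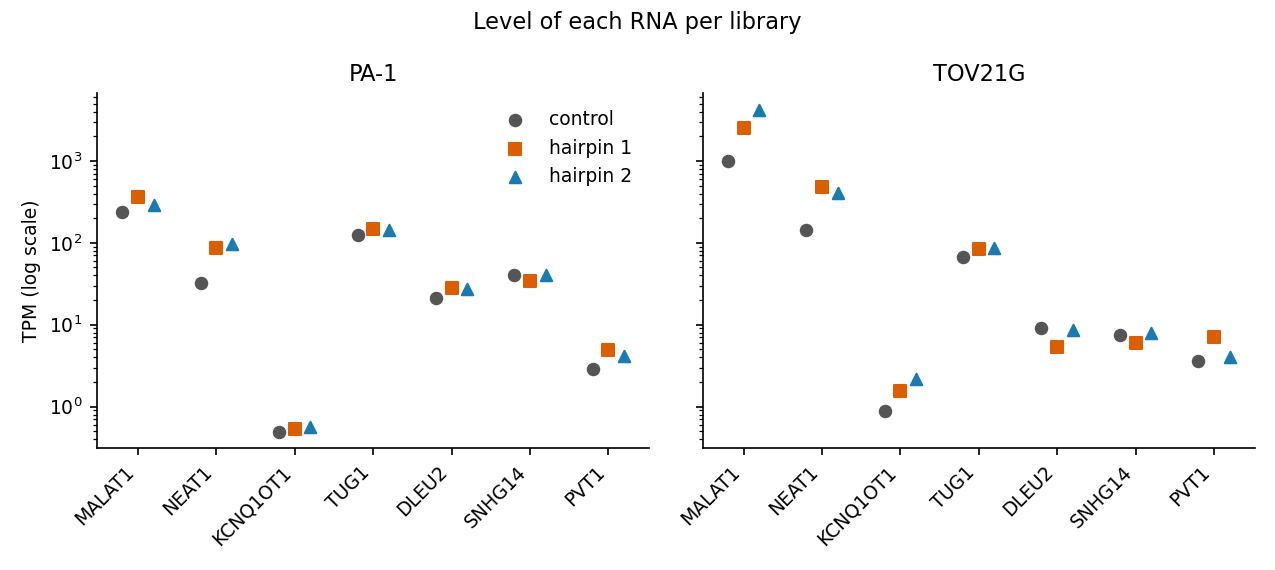
Level of each of the 7 RNAs in TPM (transcript abundance corrected for length, log scale) in PA-1 (left) and TOV21G (right); each point is 1 library. MALAT1 tops every library, from 238 TPM in the PA-1 control to 4232 TPM in TOV21G with hairpin 2, and KCNQ1OT1 is the lowest in every library, at 0.49 to 2.17 TPM.

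The test across all genes fitted 1 mean for each line and hairpin target, took the spread from the 2 hairpins of each line, and assumed that the lone control varies as they do. In TOV21G the log2 fold change of MALAT1 was 1.69 (SE 0.46), with an adjusted p of 0.424 by edgeR's quasi-likelihood test and 0.0235 by DESeq2 (Benjamini-Hochberg in both). In PA-1 the log2 fold change was 0.41 (SE 0.43), with an adjusted p of 1 by edgeR and by DESeq2. The rise in TOV21G therefore passed the threshold of 0.05 in DESeq2 only. Without the TOV21G hairpin 1 library the log2 fold change was 2.10, with an adjusted edgeR p of 0.0237, and without the hairpin 2 library it was 1.124, with an adjusted edgeR p of 0.0917. With either PA-1 hairpin left out it was 1.69, with an adjusted edgeR p of 1. In the fits with 1 TOV21G hairpin left out, the lone TOV21G hairpin library and the control are assumed to vary like the PA-1 hairpins.

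Of the 16855 genes edgeR called 0% in either line and 0% in the average of both lines, so that no member could stand apart by that call. An unadjusted p under 0.05 was found for 434 genes in PA-1, for 1612 in TOV21G and for 1383 in the average. DESeq2 called 0.232% of genes in PA-1 (34 higher and 2 lower), 1.89% in TOV21G (94 higher and 132 lower) and 1.00% in the average (96 higher and 37 lower), in percent of the 15547, 11953 and 13260 genes for which it gave an adjusted p. When TOV21G hairpin 1 was left out, edgeR called 1489 genes in TOV21G and 526 in the average. Of the 7 members DESeq2 called 1 in PA-1 and 2 in TOV21G.

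NEAT1 was 2.27-fold to 3.14-fold of its control with every hairpin, and DESeq2 called it higher in both lines. In PA-1 it was at 119 CPM in the control, 270.5 CPM with hairpin 1 and 273 CPM with hairpin 2. In TOV21G it was at 361 CPM in the control, 1133 CPM with hairpin 1 and 1068 CPM with hairpin 2. The hairpin libraries of a line lay close together, at 2.27-fold and 2.29-fold of the control in PA-1 and at 3.14-fold and 2.96-fold in TOV21G. In PA-1 the log2 fold change was 1.19 (SE 0.23), with an unadjusted p of 0.00352 and an adjusted p of 1 by edgeR and an adjusted p of 0.042 by DESeq2. In TOV21G it was 1.61 (SE 0.24), with an adjusted p of 0.382 by edgeR and 5.39e-05 by DESeq2. Without the TOV21G hairpin 1 library the TOV21G value was 1.56, with an adjusted edgeR p of 0.0248, and without the hairpin 2 library it was 1.65, with an adjusted edgeR p of 0.0836. With either PA-1 hairpin left out it was 1.61, with an adjusted edgeR p of 1.

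Averaged over both lines, the log2 fold change of NEAT1 was 1.40 (SE 0.17), with an adjusted p of 0.547 by edgeR and 1.34e-07 by DESeq2. The mean for MALAT1 was 1.05 (SE 0.31), with an adjusted p of 0.557 by edgeR and 0.102 by DESeq2, and neither passed. Without the TOV21G hairpin 1 library the means were 1.38 for NEAT1 and 1.25 for MALAT1, with adjusted edgeR p-values of 0.0314 and 0.0339. Leaving out TOV21G hairpin 2 gave 1.42 and 0.77, with adjusted edgeR p-values of 0.112 and 0.12, and leaving out either PA-1 hairpin gave adjusted edgeR p-values of 1.00 for both genes. Transcription of NEAT1 is known to be induced by p53. The p53 targets MDM2 and CDKN1A lay above the control with both hairpins in both lines, as did 14.3% of all genes tested. Neither was called by edgeR or DESeq2 in either line. MDM2 was at 367 and 502 CPM against 164 CPM in PA-1, where CDKN1A was not at least 2-fold higher with both hairpins. In TOV21G neither MDM2 nor CDKN1A was at least 2-fold higher with both hairpins. The part of p53 in the NEAT1 values was not tested.

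**Figure D2:**
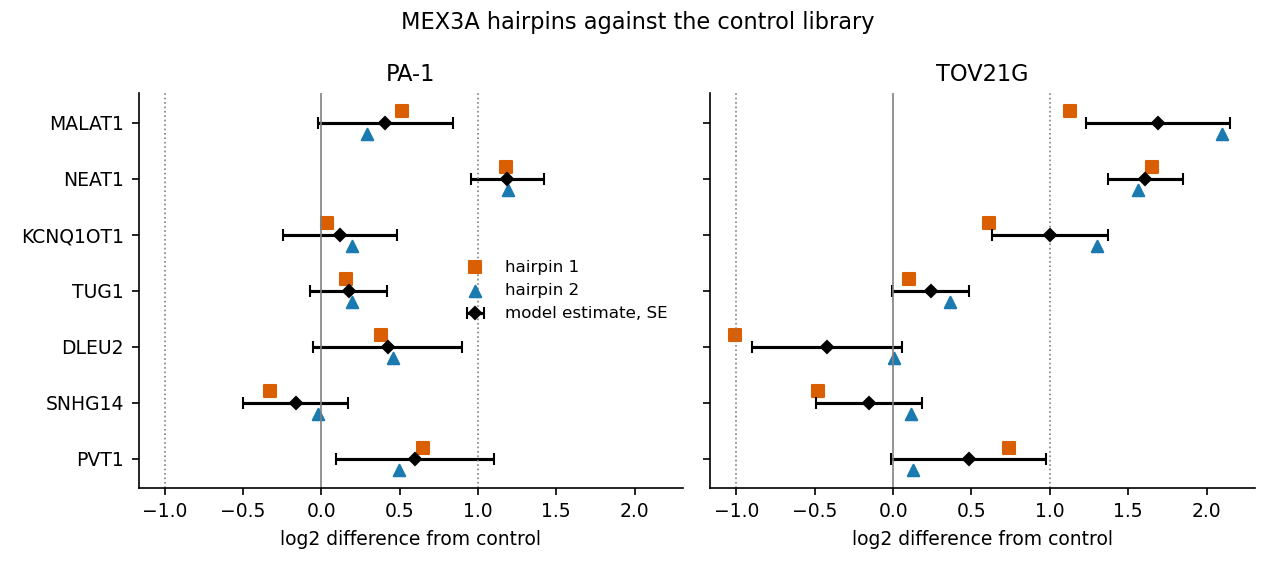
Log2 difference from the control library of the line for each RNA in PA-1 (left) and TOV21G (right). Squares and triangles are hairpins 1 and 2 (log2 CPM, 1 library each), diamonds with bars the edgeR estimate ± 1 SE, and dotted lines mark 2-fold. NEAT1 lies beyond 2-fold with both hairpins in both lines, MALAT1 in TOV21G, and DLEU2 and SNHG14 show no common direction in TOV21G.

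MALAT1 and NEAT1 were not higher by equal factors. The ratio of their TPM was 7.31 in the PA-1 control against 4.16 with hairpin 1 and 2.97 with hairpin 2. It was 7.07 in the TOV21G control against 5.19 with hairpin 1 and 10.5 with hairpin 2. Both hairpins lay below the control in PA-1, where NEAT1 stood further above its control than MALAT1 did, while in TOV21G hairpin 1 lay below and hairpin 2 above.

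NEAT1 has a short polyadenylated isoform and a long one, and the long one is required for paraspeckles. The gene length that RSEM reports is the mean over the 2 listed NEAT1 records weighted by their estimated abundance, so it carries the isoform mix. It was 8199 bases in the PA-1 control, 7409 with hairpin 1 and 6297 with hairpin 2, and 5141, 5393 and 5310 bases in the TOV21G control and hairpins. With lengths of 3524 and 22743 bases for the isoforms, taken from GENCODE v29, the long isoform made up 24.3% of NEAT1 TPM in the PA-1 control and 20.2% and 14.4% with hairpins 1 and 2. In TOV21G it made up 8.41% of the control's NEAT1 TPM, and 9.73% and 9.29% with hairpins 1 and 2. All 3 PA-1 libraries held a larger share of the long isoform than any TOV21G library, and with a short length of 3441 bases the shares ran from 8.81% to 24.7%.

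Both isoforms were higher with both hairpins, by unequal factors in PA-1. There the short isoform was at 24.7 TPM in the control, 69.3 TPM with hairpin 1 and 83.8 TPM with hairpin 2, and the long isoform at 7.93, 17.6 and 14.1 TPM. These are 2.81-fold and 3.40-fold of the control for the short isoform and 2.21-fold and 1.78-fold for the long one. In TOV21G the short isoform was at 130 TPM in the control, 435 TPM with hairpin 1 and 364 TPM with hairpin 2, and the long isoform at 12.0, 46.9 and 37.3 TPM. Here the long isoform lay at 3.92-fold and 3.12-fold of the control and the short one at 3.34-fold and 2.79-fold. The short isoform is contained in the long one, so the split rests on RSEM's model of reads along the transcript, and the oligo-dT capture of a long isoform without a poly(A) tail was not tested. The longest NEAT1 transcript holds 5 runs of at least 10 A, the longest of 22.

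**Figure D3:**
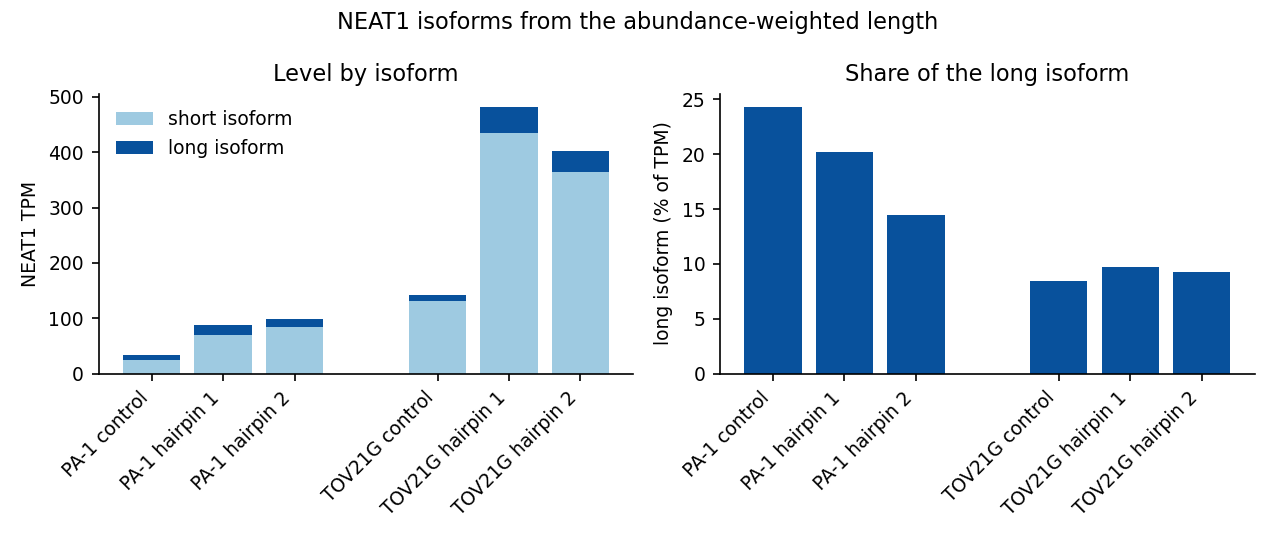
NEAT1 in TPM split into short and long isoform (left, stacked bars) and the long isoform's share of NEAT1 TPM in percent (right), 1 bar per library, computed from the deposited abundance-weighted length. The share is 24.3% in the PA-1 control and 14.4% with hairpin 2, and it lies between 8.41% and 9.73% in TOV21G.

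The genes of paraspeckle proteins lay slightly below the control more often than above it. Of 20 listed paraspeckle proteins 16 lay below the control with both hairpins in PA-1 and 11 in TOV21G, with 2 and 3 above it, against 34.0% and 31.9% of all genes tested that lay below with both. The list's median log2 fold change was -0.15 in PA-1 and -0.16 in TOV21G, against 0 and 0.02 over all genes. HNRNPF, a splicing regulator, stood at 254 CPM in the PA-1 control against 192 and 207 CPM with the hairpins, and at 513 CPM in the TOV21G control against 324 and 259 CPM. HNRNPA1, an abundant hnRNP protein, stood at 1417 CPM in the TOV21G control against 887 and 914 CPM. The core proteins of the bodies did not share a direction. PSPC1 stood at 80.5 CPM in the TOV21G control against 61.1 and 56.7 CPM, but at 58.9 CPM in the PA-1 control against 66.5 and 62.5 CPM. NONO, another core protein, stood at 380 CPM in the TOV21G control against 416 and 391 CPM and at 774 CPM in the PA-1 control against 687 and 692 CPM. SFPQ, also a core protein, lay below the control with every hairpin. It stood at 989 CPM in the PA-1 control against 865 and 893 CPM, and at 493 CPM in the TOV21G control against 488 and 445 CPM. NONO and SFPQ were named after their values were seen. None of the 20 was called in either line by edgeR or DESeq2.

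Nuclear speckles, where MALAT1 resides, were listed with 25 splicing factors. Of these 14 lay below the control with both hairpins in PA-1 and 10 in TOV21G, against 34.0% and 31.9% of all genes tested, and 5 lay above in each line, against 33.8% and 31.3%. The median log2 fold changes were -0.03 and -0.08, and in TOV21G the median difference was 0.02 with hairpin 1 and -0.25 with hairpin 2. SRSF2, an SR protein often used to mark speckles, stood at 239 CPM in the TOV21G control against 155 and 143 CPM with hairpins 1 and 2. TRA2B, a splicing activator, stood at 168 CPM against 112 and 94.5 CPM. No gene of the list was called by edgeR or DESeq2.

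Factors that degrade or trim nuclear RNA, among them the exosome and RNase P, were listed with 28 genes. In PA-1 9 lay above and 9 below the control with both hairpins, against 33.8% and 34.0% of all genes tested, with a median log2 fold change of 0.00. In TOV21G 4 lay above and 16 below, against 31.3% and 31.9% of all genes, with a median of -0.16. RPP25 is a protein subunit of RNase P, the enzyme that cuts the MALAT1 end shown above. It was at 13.2 CPM in the TOV21G control against 6.0 and 3.36 CPM with the hairpins, and at 29.7 CPM in the PA-1 control against 18.0 and 15.4 CPM. RPP38 and POP4, also RNase P subunits and named by the same rule, went the other way in PA-1. RPP38 was at 15.9 and 13.9 CPM there against 11.6 CPM in the control, and POP4 at 19.5 and 16.9 CPM against 14.7 CPM. The exosome subunits EXOSC2 and EXOSC8 were at 35.8 and 22.5 CPM in the TOV21G control, at 24.3 and 15.7 CPM with hairpin 1 and at 19.95 and 10.6 CPM with hairpin 2. RPP25 lay below the control with both hairpins in each line, as did 34.0% of all genes in PA-1 and 31.9% in TOV21G. It was named for that shared direction and its size. Its log2 fold change of -1.49 (SE 0.41) in TOV21G had an adjusted p of 0.425 by edgeR and 0.213 by DESeq2, and no gene of the list was called.

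KCNQ1OT1 is an unspliced antisense RNA on the minus strand of chromosome 11 (bases 2608328 to 2699994, GRCh38) inside the gene KCNQ1, and it is known to silence KCNQ1, CDKN1C and PHLDA2 on the paternal chromosome. In TOV21G it stood at 42.5 CPM in the control, 64.9 CPM with hairpin 1 and 105 CPM with hairpin 2. Both hairpins lay above the control, by 1.53-fold and 2.47-fold, in the same order as MALAT1. In PA-1 it stood at 20.5 CPM in the control, 21.1 CPM with hairpin 1 and 23.5 CPM with hairpin 2, which is within 1.15-fold. The log2 fold change was 1.00 (SE 0.37) in TOV21G, with an adjusted p of 0.505 by edgeR and 0.364 by DESeq2, and 0.12 (SE 0.36) in PA-1, with an adjusted p of 1 by both. Without the TOV21G hairpin 1 library the TOV21G value was 1.30, with an adjusted edgeR p of 0.0324, and without the hairpin 2 library it was 0.61, with an adjusted edgeR p of 0.22. With either PA-1 hairpin left out it was 1.00, with an adjusted edgeR p of 1. Its transcript record of 91671 bases gives it the lowest TPM of the 7 RNAs, and its longest transcript holds 17 runs of at least 10 A, the longest of 29.

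In TOV21G the maternally expressed neighbours had values on the other side of the control, and none passed a test. CDKN1C, a cell cycle inhibitor, stood at 16.0 CPM in the TOV21G control, 8.11 CPM with hairpin 1 and 7.99 CPM with hairpin 2. PHLDA2, a growth-restraining gene of the placenta, stood at 17.7 CPM in the control, 8.18 CPM with hairpin 1 and 5.24 CPM with hairpin 2. Both hairpins lay below the control for both genes, as they did for 31.9% of all genes tested. The part of KCNQ1OT1 in these values was not tested. The log2 fold changes were -0.99 (SE 0.70) and -1.40 (SE 0.49), with adjusted p-values of 0.677 and 0.486 by edgeR and 0.851 and 0.436 by DESeq2. In PA-1 CDKN1C was at 1.45, 0.728 and 2.80 CPM and PHLDA2 at 6.11, 5.46 and 9.81 CPM in the control and with hairpins 1 and 2, so that hairpin 1 was below and hairpin 2 above the control for both genes. KCNQ1 itself did not pass the filter on low counts.

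SNHG14 is the long RNA of the Prader-Willi and Angelman region on chromosome 15 (bases 24978583 to 25419462, plus strand), which starts 732 bases after the end of SNURF, carries small nucleolar RNAs in its introns and is known in neurons for silencing UBE3A on the paternal chromosome. In PA-1 it stood at 357 CPM in the control, 285 CPM with hairpin 1 and 352 CPM with hairpin 2. In TOV21G it stood at 73.1 CPM in the control, 52.3 CPM with hairpin 1 and 79.1 CPM with hairpin 2. Hairpin 1 was the lowest library of each line, at 0.799-fold and 0.716-fold of the control, while hairpin 2 was near the control. The log2 fold changes were -0.16 (SE 0.34) in PA-1 and -0.15 (SE 0.34) in TOV21G, with adjusted p-values of 1 and 0.915 by edgeR and 1 and 0.985 by DESeq2. Leaving out TOV21G hairpin 1 gave 0.11 in TOV21G, of the opposite sign.

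SNRPN and SNURF, the genes upstream of SNHG14 that share its promoter region, had a wider gap between the hairpins. SNRPN stood at 138 CPM in the PA-1 control, 83.4 CPM with hairpin 1 and 185 CPM with hairpin 2, and at 40.8, 19.6 and 71.0 CPM in TOV21G. SNURF, a short reading frame on the same transcript, stood at 119, 66.0 and 158 CPM in PA-1 and at 37.2, 16.7 and 66.9 CPM in TOV21G. For both genes hairpin 1 was lowest and hairpin 2 highest in both lines, an order that SNHG14 had in TOV21G and not in PA-1, where its control was highest. On the log2 CPM scale hairpin 2 exceeded hairpin 1 by 1.15 in PA-1 and 1.85 in TOV21G for SNRPN, by 1.26 and 2.00 for SNURF and by 0.30 and 0.60 for SNHG14, a contrast of single libraries that was not tested. SNRPN and SNURF share transcripts, so their counts depend on how RSEM divided common reads.

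UBE3A, a ubiquitin ligase antisense to the far end of SNHG14, was at 217, 215 and 224 CPM in PA-1 and at 150, 189 and 220 CPM in TOV21G in the control and with hairpins 1 and 2. Its hairpin libraries lay above the control in TOV21G only, at a log2 fold change of 0.45 (SE 0.25) and an adjusted edgeR p of 0.61, and not in the order of SNHG14. The kit marks the strand, but the strand setting of the counting is not given in the sources used here, so reads of SNHG14 and UBE3A, of DLEU2 and its antisense partners, or of KCNQ1OT1 and KCNQ1 may not be fully separated. NDN and MAGEL2, imprinted genes of the same region, were at 28.2 to 30.2 CPM and 4.22 to 5.28 CPM in the PA-1 libraries and at 0 in all 3 TOV21G libraries.

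**Figure D4:**
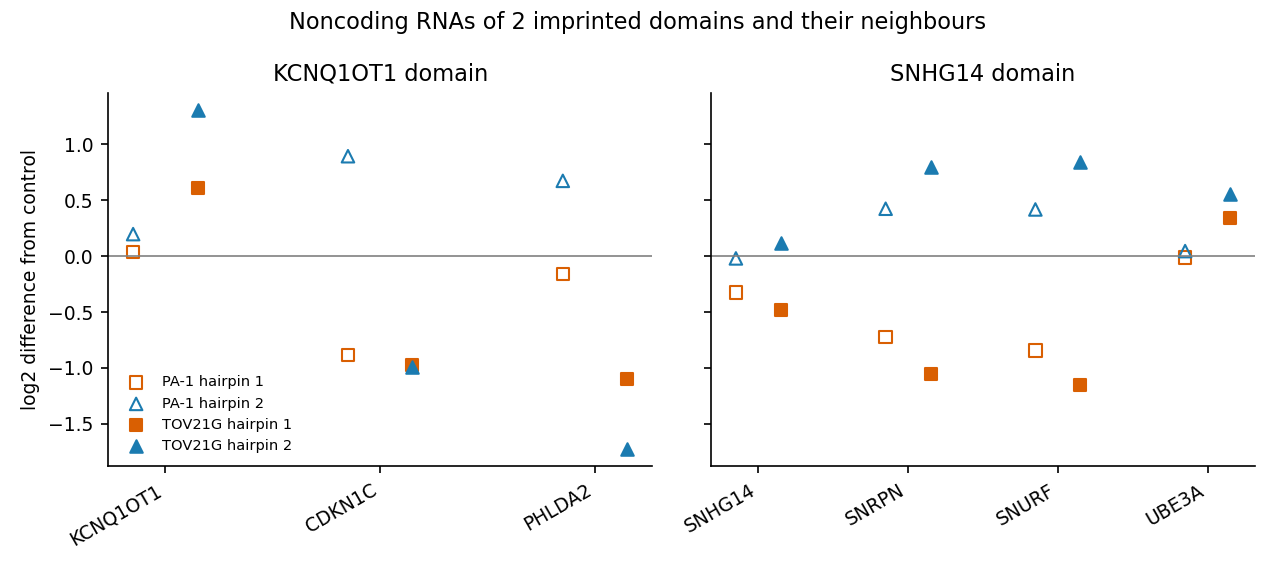
Log2 difference from the control library of the line (log2 CPM, 1 library per point) for KCNQ1OT1 and its neighbours (left) and SNHG14 and its neighbours (right); open symbols are PA-1, filled symbols TOV21G, squares hairpin 1 and triangles hairpin 2. In TOV21G KCNQ1OT1 lies above 0 and CDKN1C and PHLDA2 below it, and in both lines hairpin 1 is below 0 and hairpin 2 above 0 for SNRPN and SNURF.

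TUG1, a spliced RNA on chromosome 22 (bases 30969245 to 30979395, plus strand) known from retina and from chromatin silencing, stayed within 1.29-fold of its control. It stood at 393 CPM in the PA-1 control, 438 CPM with hairpin 1 and 451 CPM with hairpin 2, and at 239, 256 and 307 CPM in TOV21G. Each hairpin library lay above its control, by at least 1.07-fold. The log2 fold changes of 0.18 (SE 0.25) and 0.24 (SE 0.25) were within their standard errors, with adjusted p-values of 1 and 0.774 by edgeR and 1 and 0.934 by DESeq2. MORC2, a chromatin regulator transcribed in the opposite direction from the same promoter region, was at 70.3, 71.7 and 69.9 CPM in PA-1 and at 53.7, 74.7 and 56.2 CPM in TOV21G. SMTN, a smooth muscle cytoskeleton gene downstream, was lower with both hairpins in PA-1, at 15.6 and 13.6 CPM against 20.1 CPM, and higher with both in TOV21G, at 28.1 and 31.5 CPM against 14.9 CPM, with an adjusted edgeR p of 1 and 0.433.

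DLEU2 is a spliced RNA on the minus strand of chromosome 13 (bases 49982552 to 50125720), in a region often deleted in chronic lymphocytic leukaemia, and it is the host of miR-15a and miR-16-1, miRNAs that repress cell cycle and survival genes such as BCL2. Both lie in an intron of DLEU2, at chr13:50049167-50049188 and chr13:50049027-50049048 on the minus strand (RefSeq, GRCh38.p14). Their mature sequences are shown because they share the seed, bases 2 to 8, in capitals:
hsa-miR-15a-5p: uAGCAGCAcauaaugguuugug
hsa-miR-16-5p: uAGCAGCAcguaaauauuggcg
The mature miRNAs were not measured here, and a host's poly(A) RNA need not follow them. DLEU2 stood at 13.7 CPM in the PA-1 control, 17.9 CPM with hairpin 1 and 18.9 CPM with hairpin 2. In TOV21G it stood at 6.76 CPM in the control, 3.30 CPM with hairpin 1 and 6.79 CPM with hairpin 2. Both hairpins lay above the control in PA-1, by 1.30-fold and 1.38-fold, while in TOV21G hairpin 1 lay at 0.488-fold and hairpin 2 at the control. The log2 fold changes were 0.42 (SE 0.48) in PA-1 and -0.42 (SE 0.48) in TOV21G, with adjusted p-values of 1 and 0.796 by edgeR and 1 and 0.951 by DESeq2. Without the TOV21G hairpin 1 library the TOV21G value was 0.0049, so that its sign rests on that library, with only 50.1 counts in it.

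The neighbours of DLEU2 did not share a direction with it. DLEU1, the divergent noncoding partner, was at 18.4, 16.3 and 14.1 CPM in PA-1 and at 8.77, 6.59 and 7.39 CPM in TOV21G, below the control with every hairpin. TRIM13, a ubiquitin ligase gene antisense within the DLEU2 span, was at 48.1, 33.98 and 35.8 CPM in PA-1 and at 59.0, 59.9 and 66.1 CPM in TOV21G. The weighted length of DLEU2, over 7 listed transcripts, was 1677, 1734 and 1777 bases in PA-1 and 1679, 1601 and 1769 bases in TOV21G. No neighbour of DLEU2 was called by edgeR or DESeq2.

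PVT1 lies on chromosome 8 downstream of MYC (bases 127794533 to 128101253, plus strand) and is often amplified with it in tumours. It was the member with the fewest counts, 35, 58 and 62 in the PA-1 control and hairpins 1 and 2, and 49, 82 and 52 in TOV21G. In PA-1 it stood at 2.2 CPM in the control, 3.52 CPM with hairpin 1 and 3.15 CPM with hairpin 2, and in TOV21G at 3.18, 5.41 and 3.49 CPM. All hairpin libraries lay above their control, from 1.10-fold to 1.70-fold. The log2 fold changes were 0.60 (SE 0.50) in PA-1 and 0.48 (SE 0.49) in TOV21G, with adjusted p-values of 1 and 0.773 by edgeR. MYC, a growth-promoting transcription factor, was at 13.1, 18.4 and 18.9 CPM in PA-1 and at 95.9, 74.0 and 42.9 CPM in TOV21G, with adjusted edgeR p-values of 1 and 0.599.

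Counted over the members, 6 of 7 lay above the control with both hairpins in PA-1 and 5 of 7 in TOV21G, against 33.8% and 31.3% of all genes tested. SNHG14 lay below with both hairpins in PA-1, and no member did so in TOV21G. MALAT1, NEAT1, KCNQ1OT1, TUG1 and PVT1 lay above the control in all 4 comparisons of a hairpin with its control, as did 14.3% of all genes. At least 2-fold higher with both hairpins were NEAT1 in PA-1, where 3.36% of genes were, and MALAT1 and NEAT1 in TOV21G, where 4.26% were. The hairpins of a line share their control library, so a low or high control moves both differences together. The members were chosen with earlier results known, and these counts describe them.

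The members' median log2 fold change was 0.41 in PA-1 and 0.48 in TOV21G, against 0 and 0.02 over all genes tested. Long noncoding genes as a class lay above all genes too, with medians of 0.16 and 0.25, and 39.7% and 38.8% of them were above the control with both hairpins. Within the class the members were not at the top by log2 fold change, a rank that takes no account of the standard error. NEAT1 ranked 220 of 1583 in PA-1, and MALAT1 ranked 200 and NEAT1 216 in TOV21G. DESeq2 called 3 genes of the class higher and 1 lower in PA-1, with NEAT1 among the higher. In TOV21G it called 2 higher, MALAT1 and NEAT1, and 0 lower. The 27 listed snoRNA hosts and mostly cytoplasmic long noncoding RNAs had medians of -0.05 and -0.20. In PA-1 8 of the 27 lay above and 9 below the control with both hairpins, against 33.8% and 34.0% of all genes tested. In TOV21G 5 of the 27 lay above and 15 below, against 31.3% and 31.9% of all genes. Among them GAS5, a growth-arrest transcript, was at 51.4 and 61.4 CPM against 85.4 CPM in PA-1, SNHG7 at 11.5 and 10.7 CPM against 22.0 CPM in TOV21G, and LINC-PINT, a p53-responsive RNA known as nuclear despite its place in the list, at 12.1 and 26.8 CPM against 6.04 CPM in TOV21G. None of the 27 was called by edgeR or DESeq2.

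**Figure D5:**
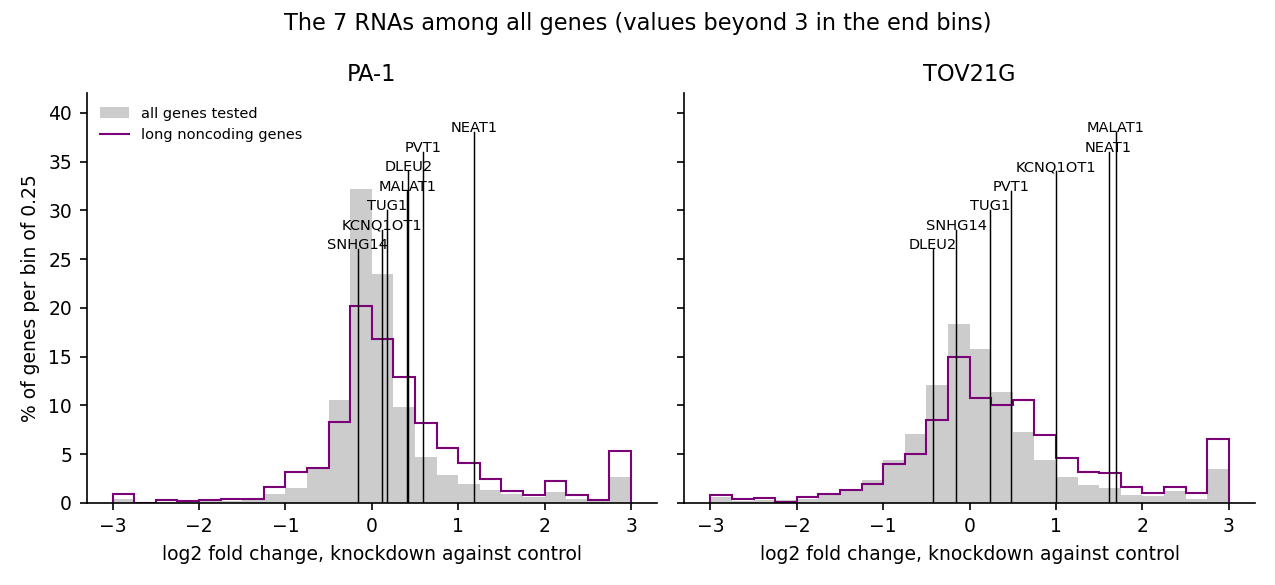
Distribution of log2 fold changes (knockdown against control, edgeR) over the 16855 genes tested (grey) and the 1583 long noncoding genes (line), in percent of genes per bin of 0.25, with the 7 RNAs marked at their values; heights of the markers have no meaning. The members run from -0.16 to 1.19 in PA-1 and from -0.42 to 1.69 in TOV21G, inside the spread of the long noncoding class.

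Median differences in TOV21G varied with transcript length by a small amount. Genes with transcripts over 8 kb had a median log2 difference of 0.07 with hairpin 1 and 0.16 with hairpin 2 in TOV21G, and genes under 1 kb had medians of -0.12 and -0.11. The 22 other long noncoding genes over 8 kb had medians of 0.14 and 0.01, with 40.9% of them above the control with both hairpins. The 1554 other long noncoding genes of 8 kb or less had medians of 0.23 and 0.03, with 38.6% above. Of all genes tested 31.3% lay above with both. MALAT1, NEAT1 and KCNQ1OT1, the members whose longest transcript has 1 exon, had log2 fold changes of 1.69, 1.61 and 1.00 in TOV21G, and the spliced members TUG1, DLEU2, SNHG14 and PVT1, with 3, 14, 38 and 8 exons, had 0.24, -0.42, -0.15 and 0.48. In PA-1 the same values were 0.41, 1.19 and 0.12 for the 1-exon members and 0.18, 0.42, -0.16 and 0.60 for the spliced ones, so the sets overlapped there. The split of the members by exon number was not fixed beforehand, and other 1-exon genes were not compared. The part of length, splicing or capture in these values was not tested.

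Whether the lines responded differently was tested directly. The TOV21G effect exceeded the PA-1 effect by 1.28 on the log2 scale for MALAT1 (SE 0.60, unadjusted p 0.0836), by 0.88 for KCNQ1OT1 (SE 0.51) and by 0.42 for NEAT1 (SE 0.31), and it was 0.85 lower for DLEU2, at -0.85 (SE 0.68). The adjusted p was 1 for each of these by edgeR and by DESeq2, and edgeR called 0% of genes, with 642 at an unadjusted p under 0.05 and 19 called by DESeq2. No difference between the lines in response was thus shown for any member.

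The levels of 6 of the 7 members differed between the lines by edgeR. Averaged over control and knockdown, MALAT1 was 2.89 higher in TOV21G on the log2 scale (SE 0.33, adjusted edgeR p 0.00309), NEAT1 1.81 higher (SE 0.16, 0.0017) and KCNQ1OT1 1.49 higher (SE 0.26, 0.0106). SNHG14 was lower in TOV21G, with a log2 difference of -2.28 (SE 0.26, adjusted edgeR p 0.00297), as were DLEU2 at -1.44 (SE 0.35, 0.0259) and TUG1 at -0.69 (SE 0.17, 0.0303). PVT1 differed by 0.47 (SE 0.35, adjusted edgeR p 0.322), which did not pass. These 6 calls stand against 40.6% of all genes called between the lines by edgeR and 40.2% by DESeq2 (6837 and 6772 genes), and edgeR called 3850 genes when PA-1 hairpin 1 was left out and 4002 when PA-1 hairpin 2 was. With hairpin 1 left out the adjusted edgeR p was 0.19 for TUG1 and 0.0756 for DLEU2, and with hairpin 2 left out it was 0.196 and 0.0775. The log2 differences themselves stayed at -0.70 and -0.68 for TUG1 and at -1.47 and -1.43 for DLEU2, and both RNAs were called with either TOV21G hairpin left out.

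In TPM, which corrects for length, the order in the PA-1 control was MALAT1 at 238, TUG1 at 124, SNHG14 at 40.7, NEAT1 at 32.6, DLEU2 at 21.3, PVT1 at 2.88 and KCNQ1OT1 at 0.49 TPM. With both hairpins NEAT1, at 86.8 and 97.9 TPM, passed SNHG14, at 34.3 and 39.9 TPM. In the TOV21G control the order was MALAT1 at 1007, NEAT1 at 142, TUG1 at 67.1, DLEU2 at 9.19, SNHG14 at 7.40, PVT1 at 3.65 and KCNQ1OT1 at 0.89 TPM. MALAT1, NEAT1 and TUG1 kept these places with both hairpins, while DLEU2 (5.39 and 8.63 TPM), SNHG14 (6.01 and 7.88 TPM) and PVT1 (7.03 and 3.99 TPM) overlapped and have no firm order. All 7 together took 0.182% of counts in the PA-1 control, 0.244% and 0.225% with hairpins 1 and 2, and 0.494%, 1.13% and 1.86% in TOV21G, where most of it was MALAT1.

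Centred on the mean of each line, log2 CPM over the 6 libraries gave a Pearson r of 0.96 between MALAT1 and KCNQ1OT1, 0.91 between MALAT1 and TUG1 and 0.80 between MALAT1 and NEAT1. SNHG14 and PVT1 ran opposite, at -0.85, and SNHG14 and DLEU2 together, at 0.71. These are descriptions over 6 libraries that share depth, line and control. Among 11555 genes at a mean of at least 5 CPM, those most like MALAT1 were TUBA1A, an alpha tubulin, UBXN7 and FBXW7, an adaptor of a ubiquitin ligase, with r rounding to 0.999 for each. TUBA1A stood at 293, 499 and 828 CPM in the TOV21G control and hairpins 1 and 2 and at 157, 206 and 181 CPM in PA-1, while UBXN7 ran only from 159 to 191 CPM in TOV21G. Those most like NEAT1 were CIAO2A, KPNA1, a nuclear import receptor, and WWP1, a ubiquitin ligase, at 0.996, 0.995 and 0.994. Taking the highest r among 11555 genes over 6 libraries favours high values by itself. KPNA1 stood at 122, 151 and 148 CPM in PA-1 and at 112, 151 and 144 CPM in TOV21G.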

How the data were processed

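Poly(A)-captured, strand-marked libraries of 6 samples were used. Per the submitters' processing notes, cutadapt 1.12, STAR 2.5.3a, RSEM 1.2.31, edgeR 3.26.8 and build hg38 were used, with no role stated, and the strand setting of the counting is not given in the sources used here. Per the file headers, the authors deposited RSEM expected counts, TPM and abundance-weighted lengths per gene. TPM and lengths were used as deposited.

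Rounded expected counts went into edgeR 4.0.16, run in R 4.3.3 (TMM, filterByExpr on the 4 groups of line and hairpin target, quasi-likelihood test, Benjamini-Hochberg over 16855 genes, threshold 0.05), with 2 residual degrees of freedom and a biological coefficient of variation of 0.295. DESeq2 1.42.0 was an alternative, and 1 adjusted p it left undefined (PVT1 in TOV21G) was not used. Standard errors are the log2 fold change divided by the root of F. Per-hairpin log2 CPM differences used a prior count of 2. Folds are ratios of CPM. Sums ranged from 14654628 to 19495162 counts per library. The fitting was tested on simulated counts.

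Members, lists and neighbours were chosen with earlier results of these data known. From each list, up to 3 genes per line were eligible by name: the same sign with both hairpins, a mean of at least 5 CPM and the largest smaller difference. Likeness used the 3 genes of highest r per member. Other settings, left-out libraries and a replicate block were tried as alternatives.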

Additional observations from a re-analysis of the deposited data

Results flagged for a closer look

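The abundance-weighted length of NEAT1 moved in opposite directions in the 2 lines. It was -790.2 bases from the control with hairpin 1 and -1901.9 bases with hairpin 2 in PA-1, and 252.6 and 169.5 bases above the control with hairpins 1 and 2 in TOV21G. Every hairpin library of a line lay on the same side of its control, and the difference between the lines was not tested.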

How the results depend on the processing

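The count of genes called by edgeR against control was 0 in PA-1, TOV21G, their mean and their difference. With DESeq2 it was 36, 226, 133 and 19 genes. Leaving out 1 hairpin library at a time gave 0 to 1489 genes in TOV21G and 0 to 526 for the mean, both highest without TOV21G hairpin 1, and 0 in PA-1 and for the difference. Between the lines 6837 genes were called, and 3850 to 9946 with 1 library left out (3850 without PA-1 hairpin 1, 4002 without PA-1 hairpin 2). With the hairpin number as replicate block 5 genes were called in TOV21G and 0 in PA-1. The number marks a shared reagent only; deviations of same-numbered libraries correlated across genes at 0.236 over both lines. The block gave KCNQ1OT1 -0.10 in PA-1, DLEU2 -0.28 for the mean and SNHG14 -0.011 for the difference, each of reversed sign. With 1 library left out, DLEU2 ran from -1.04 to 0.0049 and SNHG14 from -0.49 to 0.11 in TOV21G, the positive values without TOV21G hairpin 1. The DLEU2 mean, near 0, was -0.0012 with RLE factors, -0.0013 with DESeq2 and -0.012 with no filter, and it ran from -0.30 (without TOV21G hairpin 2) to 0.22 with 1 library left out, being -0.018 without PA-1 hairpin 2. The SNHG14 difference was -0.036 with total counts and -0.015 with no filter, -0.14 without PA-1 hairpin 1, and with 1 library left out it ran from -0.33 to 0.28, that of TUG1 from -0.080 to 0.19 and that of PVT1 from -0.46 to 0.16, the reversed ends without TOV21G hairpin 2. DLEU2 with TOV21G hairpin 2 was -0.082 by log2(TPM + 1) and -0.070 with total counts. These reversals had adjusted p-values far from the threshold or no test, and their cause was not tested. MALAT1 and NEAT1 kept their direction against control in both lines under every alternative run. PVT1 had 35 to 82 counts per library and DLEU2 50.1 to 372, and the part of depth in their values was not tested.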
